A study of Mus musculus with 6 samples.

Results

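The axon guidance ligands and receptors are the semaphorins of classes 3 to 7, their plexin and neuropilin receptors, the ephrins and Eph receptors, the Slits and Robos, and the netrins with their Unc5 and Dcc receptors. They were taken by gene symbol, which matched 70 of the 24346 symbols in the tables of 6 hippocampal RNA-seq libraries. Of the 70 rows, 69 encode a guidance protein (35 ligands and 34 receptors), and the other, Plxna4os1, is a transcript antisense to Plxna4. The libraries HET1 to HET3 came from mice heterozygous for the gene of the transcription factor TonEBP (TonEBP+/-, called haploinsufficient in the labels). They were set against 3 libraries of wild-type littermates (TonEBP+/+, WT1 to WT3). All 6 came from 12-month-old C57BL/6 mice, from a line bred back onto C57BL/6J for 5 to 6 generations. Both genotypes came from crosses of TonEBP+/- parents and neither is labelled as treated. How the allele was disrupted is not given in the labels, nor whether each library is a separate animal, so p-values measure the spread between these samples, which may be technical.

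Guidance proteins steer growing axons during development by attracting or repelling the growth cone. Secreted class 3 semaphorins act through neuropilins and plexins, membrane-bound ephrins through Eph receptor tyrosine kinases, Slits through Robos, and netrins through Dcc and Unc5 receptors. Many of these genes stay on in the adult hippocampus, where Eph and ephrin proteins shape dendritic spines and class 3 semaphorins act on synapses. Outside neurons, several of them also pattern blood vessels.

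Levels are given as FPKM (fragments per kilobase of transcript and per unit of library depth), obtained by undoing the deposited log2(value + 1). No header names the unit, and it was read from the values. The spacing of low values put the depth at an estimated 8700000 to 13800000 fragments in TonEBP+/- libraries and 9490000 to 11900000 in wild-type libraries. Nfat5, which encodes TonEBP, was at 8.25, 9.31 and 8.42 FPKM in TonEBP+/- libraries and at 10.5, 8.39 and 9.72 FPKM in wild-type libraries. The genotypes overlapped in Nfat5, so its level did not check the labels (log2 difference -0.12, SE 0.0963, limma adjusted p = 1.00).

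Markers of hippocampal principal neurons were present in all 6 libraries (15 of 15 tested, 218 to 265 FPKM summed in TonEBP+/- and 235 to 240 FPKM in wild type). HET2 was the lowest, at 218 FPKM. The median log2 deviation of these markers from the wild-type mean was -0.26 in HET2 and -0.03 to 0.05 in the other libraries. Other tissue also varied between libraries. Markers of thalamus and habenula summed to 254, 129 and 127 FPKM in HET1 to HET3 and to 218 to 259 FPKM in wild type, so HET2 and HET3 were low. Choroid plexus markers ranged from 98.4 FPKM in HET2 to 3462 FPKM in HET3, and in wild type from 283 FPKM in WT3 to 2896 FPKM in WT2. HET2 was also the highest library for summed mural cell markers (105 FPKM, against 69.6 to 80.3 FPKM in HET1 and HET3 and 68.9 to 91.4 FPKM in wild type). By gene, Vtn, Acta2, Myh11 and Tagln were highest in HET2. Pdgfrb, Rgs5 and Abcc9 were not, and Kcnj8 was lowest there. HET2 was the lowest for markers of mature oligodendrocytes (3130 FPKM, against 4400 and 4173 FPKM in HET1 and HET3 and 3889 to 4124 FPKM in wild type). In such bulk RNA, fewer cells of a type and less RNA per cell cannot be told apart.

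Levels across the family spanned 0.155 FPKM for Epha1 to 61.8 FPKM for Epha4 (means of 6 libraries). Of the 69 protein-coding members, 19 averaged 10 FPKM or more, 43 lay between 1 and 10 FPKM, and 7 lay under 1 FPKM. The receptors had a median of 7.72 FPKM and the ligands one of 3.52 FPKM. A gene was tested where at least 3 of the 6 libraries reached 1 FPKM, which 62 of the 70 rows did (29 receptors and 33 ligands). Of the 62, 60 reached 1 FPKM in all 6 libraries. The other 2 were Ntn5 (4 libraries) and Ephb4 (5 libraries, all 3 of TonEBP+/- and 2 of wild type). The 62 tested members had a median of 5.45 FPKM, against 9.91 FPKM over all 13122 genes tested. They were long, with a median of 7.11 kb of merged exons, against 4.52 kb over the 12641 tested genes with a length.

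**Figure D1:**
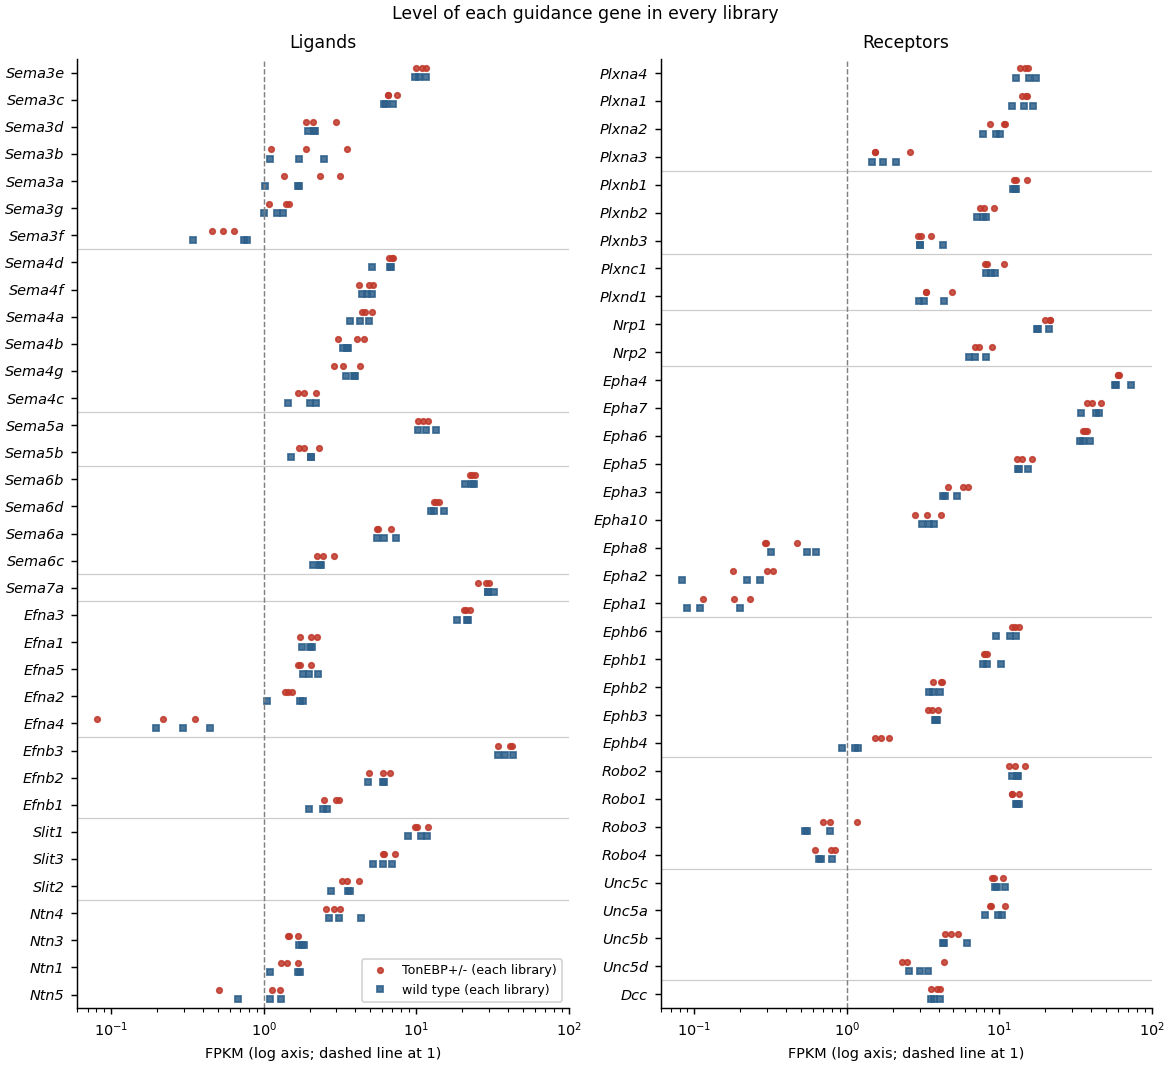
FPKM of each of the 69 guidance genes in every library on a log axis, ligands on the left and receptors on the right, by family. Red circles are the 3 TonEBP+/- libraries and blue squares the 3 wild-type libraries. Epha4, Epha7, Efnb3 and Epha6 lie highest, Epha1, Epha2, Efna4 and Epha8 lowest, and the genotypes share most of their range except in Ephb4 and Ntn3.

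No guidance gene differed between the genotypes past the test. Among the 62, the count past a limma adjusted p of 0.05 was 0 (smallest adjusted p = 1.00), as it was among all 13122 genes (0.0%). At an unadjusted limma p under 0.05, 1 member was higher in TonEBP+/- (Ephb4) and 0 were lower. Of all genes tested, 3.69% had such a p, 1.85% higher and 1.84% lower. In Ephb4 all 3 TonEBP+/- libraries lay above all 3 wild-type libraries, and in Ntn3 all 3 lay below. Such separation was seen in 8.52% of all genes tested, 4.13% above and 4.39% below. Counts of this size are near the background and are not a result about guidance genes. The median log2 difference was 0.03 over the members and -0.00 over all genes. The members' differences ran from -0.15 (Ntn4) to 0.39 (Sema3a), with a median SE of 0.114, and 43 of 62 lay within 0.1 of zero.

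**Figure D2:**
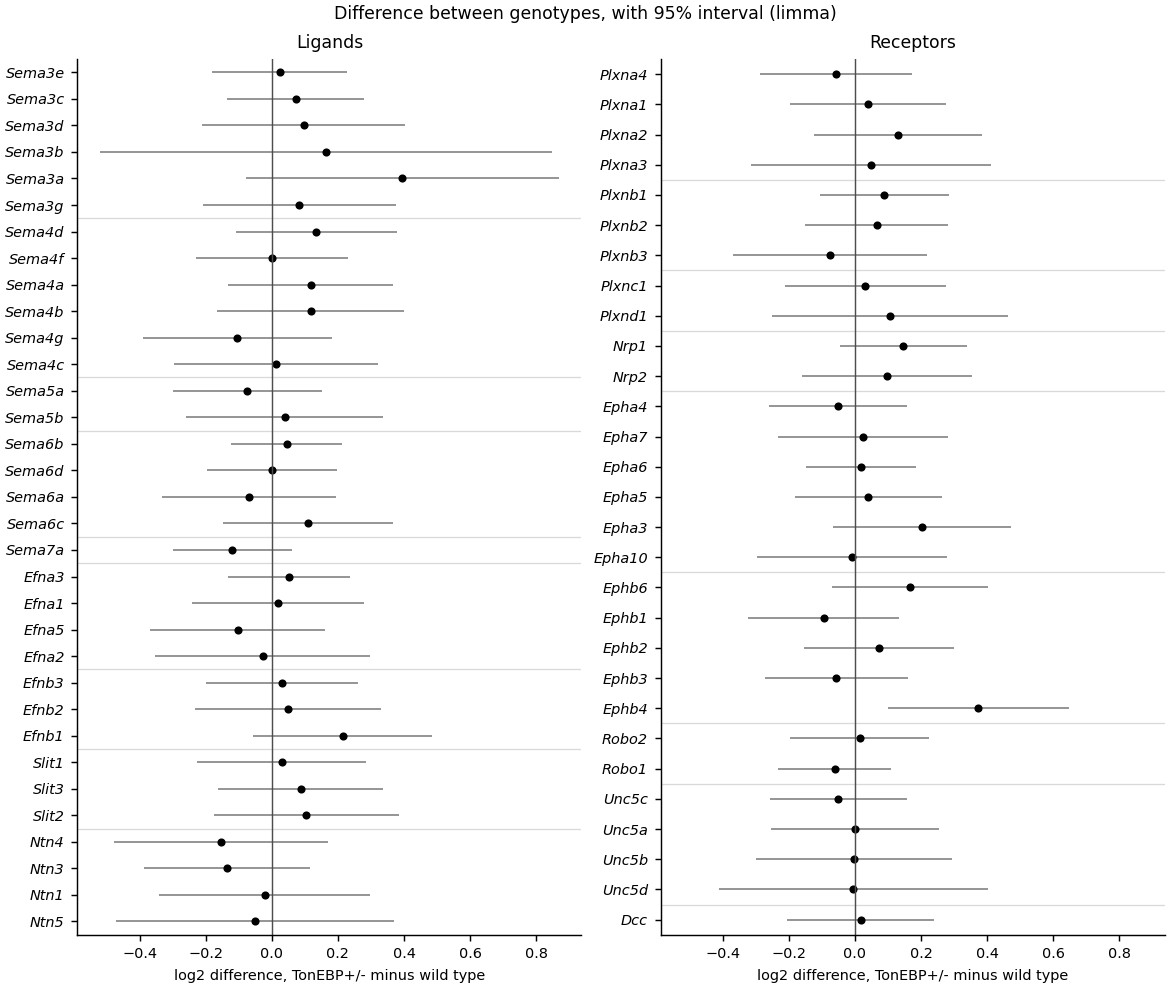
Log2 difference (TonEBP+/- minus wild type) of the 62 tested guidance genes with its 95% interval from limma, ligands on the left and receptors on the right, by family. Points run from -0.15 to 0.39, and the interval of Ephb4 (0.10 to 0.65), before any adjustment over genes, is the one that leaves out zero.

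The direction of the members as a set depended on single libraries, mainly HET2, WT2 and WT3. Of the 62, 40 had a positive difference (64.5%, against 50% of all genes tested), and 39 of 62 did under both other scalings. Of all genes, 49.6% were positive after quantile normalization and 44.5% after median scaling. Without HET2 the number of positive members was 30, without WT2 also 30, and without WT3 it was 51. Without HET1 or HET3 it stayed at 40, and without WT1 it was 39. With thalamus markers (their mean, as a covariate) it was 31, and with those of meningeal fibroblasts 34. HET2 was the highest of the 6 libraries in 32 of the 62 members (51.6%, against 18% of all genes tested). WT2 was the lowest in 25 of the 62 (40.3%, against 19.1%). On the log2 scale, the members' median deviation from the mean of 6 libraries was -0.02, 0.10 and -0.02 in HET1 to HET3, and -0.00, -0.10 and 0.07 in WT1 to WT3. The 5596 tested genes with 5 kb or more of exon moved less, with medians of -0.01, 0.01 and 0.00 in HET1 to HET3 and 0.01, -0.03 and 0.02 in WT1 to WT3. HET2 and WT2 also differed from the others in how their lowest values were stored. They held 6917 and 6210 genes at exactly 0, against 4262 in each other library. Values above 0 but under 0.001 FPKM numbered 3 and 14 in them, against 2199 to 2609. Neither transcript length, the tissue content of HET2 nor this difference in the tables was tested for its part in the direction of the members.

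**Figure D3:**
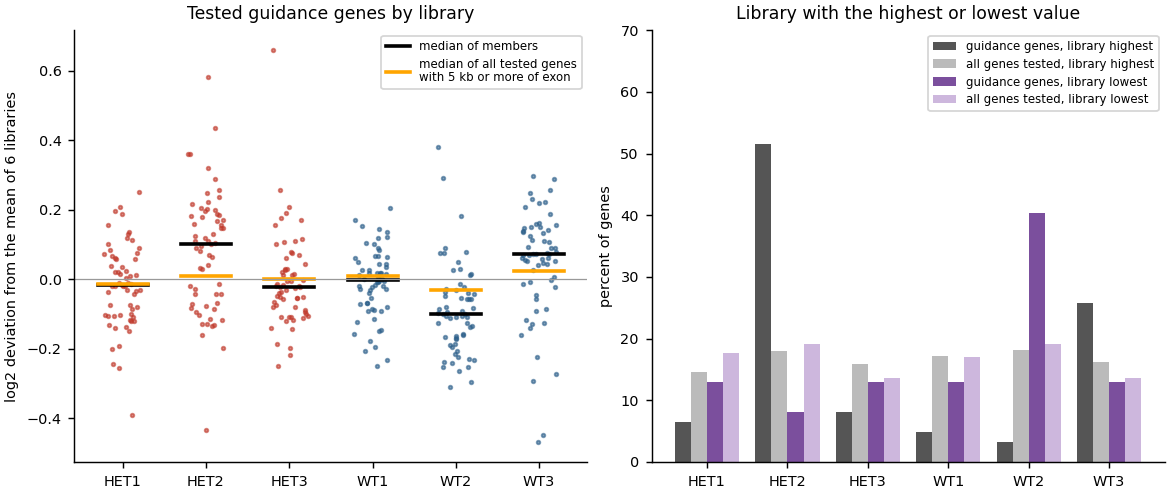
Left, log2 deviation of each tested guidance gene from its mean over 6 libraries, with the median of the members in black and that of all tested genes with 5 kb or more of exon in orange. Right, percent of genes in which a library holds the highest or the lowest value. HET2 is highest in 51.6% and WT2 lowest in 40.3% of the guidance genes, against 18% and 19.1% of all genes tested.

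Among the secreted class 3 semaphorins, Sema3e and Sema3c were the most abundant. Sema3e, a ligand of Plxnd1, was at 9.93, 11.0 and 11.7 FPKM in HET1 to HET3 and at 9.86, 10.5 and 11.7 FPKM in WT1 to WT3. Sema3c was at 6.59, 7.52 and 6.59 FPKM in TonEBP+/- and at 6.33, 6.13 and 7.08 FPKM in wild type. The genotypes overlapped in both. Sema3d (2.20 FPKM), Sema3g (1.25 FPKM) and the untested Sema3f (0.584 FPKM) were lower, as means of 6 libraries. All 6 tested members of the class had a positive log2 difference, 0.02 to 0.39, none past the test. With a library left out 4 to 6 of the 6 were positive (4 without HET3), with the thalamus covariate 3 and with the meningeal covariate 4.

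Sema3a, which encodes the founding repellent of the class, had a log2 difference slightly above that of Ephb4 in the fit of all 6 libraries. The order of the pair turned with a pseudocount of 0.1, with either covariate, and without HET2, HET3 or WT3. It was at 1.37, 3.19 and 2.35 FPKM in HET1 to HET3 and at 1.68, 1.70 and 1.02 FPKM in WT1 to WT3. HET2 and HET3 were high, while HET1 lay within the wild-type range. The means were 2.30 ± 0.913 FPKM in TonEBP+/- and 1.47 ± 0.383 FPKM in wild type (SD, n = 3 each). The log2 difference was 0.39 (SE 0.210, 95% interval -0.08 to 0.87, limma adjusted p = 1.00; two-sided exact permutation p = 0.3). It was 0.62 without HET1, 0.20 without HET2 and 0.26 without WT3. Chosen after its values were seen, the comparison with meningeal fibroblast markers put the 6 libraries in the same order. Those markers summed to 60.4, 101 and 93.5 FPKM in HET1 to HET3 and to 63.7, 77.4 and 58.3 FPKM in WT1 to WT3. Dcn and Igf2 made up most of the sum, and none of the 10 markers was at 0. Neither Dcn nor Igf2 alone gave that order. Dcn was higher in WT3 (24.1 FPKM) than in HET1 (19.9 FPKM), and Igf2 higher in HET3 (42.4 FPKM) than in HET2 (24.9 FPKM). With the mean of the tested meningeal markers as a covariate the log2 difference of Sema3a was 0.10, and with the thalamus markers 0.04. The part of these tissues in Sema3a was not tested. The meningeal covariate drew on the marker list that was chosen after the values of Sema3a were seen.

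Sema3b was the most variable member, with a within-genotype SD of 0.47 on the log2 scale, where the median was 0.15 over the tested members and 0.12 over all genes. It was at 1.90, 1.12 and 3.52 FPKM in HET1 to HET3 and at 1.69, 2.50 and 1.10 FPKM in WT1 to WT3. HET3 and WT2 were high, HET2 and WT3 low, in both genotypes. The choroid plexus markers, a comparison also chosen after the values were seen, were highest in the same 2 libraries and lowest in the same 2 (1798, 98.4 and 3462 FPKM in HET1 to HET3, and 1062, 2896 and 283 FPKM in WT1 to WT3). None of the 7 choroid plexus markers was at 0, and their part in Sema3b was not tested.

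**Figure D4:**
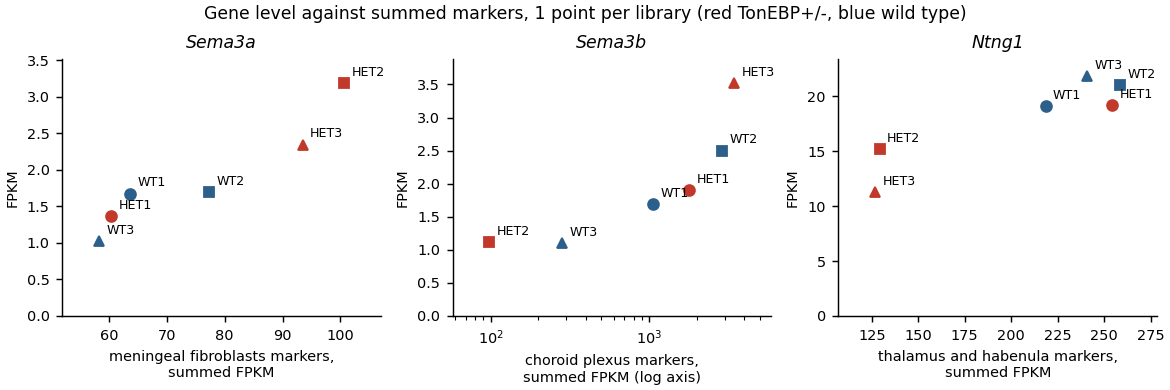
Level of Sema3a, Sema3b and the netrin G gene Ntng1 (FPKM) against the summed FPKM of meningeal fibroblast, choroid plexus (log axis) and thalamus markers, 1 point per library, red for TonEBP+/- and blue for wild type. Sema3a is highest in HET2 and HET3, where the meningeal sum is 101 and 93.5 FPKM, and Ntng1 is lowest in the same libraries, where the thalamus sum is 129 and 127 FPKM.

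The membrane-bound semaphorins were more abundant than the secreted ones at the top of the range. Sema7a, whose protein is held by a lipid anchor and binds integrins and Plxnc1, was at 30.0, 25.4 and 28.9 FPKM in TonEBP+/- and at 29.5, 29.8 and 32.3 FPKM in wild type. HET2 was the lowest and the genotypes overlapped (log2 difference -0.12, SE 0.0806, limma adjusted p = 1.00). Sema6b, a ligand of A-type plexins, was at 23.4, 24.2 and 22.6 FPKM in TonEBP+/- and at 24.1, 20.9 and 23.1 FPKM in wild type. Sema6d was at 14.2, 13.4 and 13.0 FPKM in TonEBP+/- and at 13.0, 12.5 and 15.3 FPKM in wild type. The TonEBP+/- values of both genes lay within the wild-type range or within 0.2 FPKM of it. Sema6a and Sema6c were lower, at 6.18 and 2.40 FPKM over 6 libraries.

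Sema5a, which carries thrombospondin repeats, was at 11.9, 10.3 and 11.1 FPKM in TonEBP+/- and at 11.5, 10.3 and 13.4 FPKM in wild type. Sema5b was at 1.70, 1.84 and 2.31 FPKM in TonEBP+/- and at 1.51, 2.05 and 2.05 FPKM in wild type. Neither separated the genotypes. In class 4, Sema4d, the ligand of Plxnb1, was at 6.99, 7.07 and 6.62 FPKM in TonEBP+/- and at 6.76, 5.13 and 6.81 FPKM in wild type. WT2 alone was low, and the log2 difference was 0.13 (SE 0.109, limma adjusted p = 1.00). Sema4f was at 4.93, 5.22 and 4.24 FPKM in TonEBP+/- and at 5.15, 4.44 and 4.78 FPKM in wild type. Sema4a, with a log2 difference of 0.12 (SE 0.112), was at 4.41, 5.15 and 4.60 FPKM in TonEBP+/- and at 4.90, 4.26 and 3.70 FPKM in wild type. The remaining members of the class, Sema4b, Sema4g and Sema4c, averaged 3.68, 3.63 and 1.89 FPKM over 6 libraries. Of the 6 class 4 genes, 4 had a positive difference, 3 after quantile normalization, and 0 passed the test.

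Plexins are the signalling receptors of semaphorins, and neuropilins are the co-receptors that bind class 3 ligands. Plxna4 was at 14.7, 15.4 and 13.8 FPKM in TonEBP+/- and at 15.7, 12.9 and 17.4 FPKM in wild type. Plxna1 was at 15.2, 14.1 and 15.1 FPKM in TonEBP+/- and at 14.5, 12.2 and 16.8 FPKM in wild type. In both genes WT2 was the lowest and WT3 the highest library, with the TonEBP+/- libraries between them. Plxna2 was at 8.67, 10.9 and 10.8 FPKM in TonEBP+/- and at 9.46, 7.89 and 10.2 FPKM in wild type. Its log2 difference of 0.13 (SE 0.114, limma adjusted p = 1.00) turned to -0.05 with the thalamus covariate. Plxna3 averaged 1.83 FPKM and was highest in HET2, at 2.59 FPKM.

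Among the B-type plexins, Plxnb1 was at 15.2, 12.8 and 12.5 FPKM in TonEBP+/- and at 13.0, 12.6 and 12.2 FPKM in wild type, with HET1 alone high (log2 difference 0.09, limma adjusted p = 1.00). Plxnb2 was at 9.21, 7.44 and 7.93 FPKM in TonEBP+/- and at 8.24, 7.88 and 7.19 FPKM in wild type, again with HET1 highest. Plxnb3 averaged 3.32 FPKM over 6 libraries. Plxnc1, the receptor of Sema7a, was at 8.11, 10.8 and 8.37 FPKM in TonEBP+/- and at 9.37, 8.24 and 8.80 FPKM in wild type. Plxnd1, the Sema3e receptor known from blood vessels, was at 3.29, 4.94 and 3.33 FPKM in TonEBP+/- and at 4.33, 2.95 and 3.20 FPKM in wild type. HET2 was the highest library in both. It was also highest in endothelial markers, whose part was not tested (86.2 FPKM summed, against 77.2 and 69.1 FPKM in HET1 and HET3 and 71.8 to 78.6 FPKM in wild type).

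Nrp1 was the most abundant neuropilin. It was at 20.05, 21.7 and 21.6 FPKM in TonEBP+/- and at 17.9, 17.8 and 21.34 FPKM in wild type. HET2 and HET3 lay above all wild-type libraries and HET1 below WT3, so the genotypes overlapped (log2 difference 0.15, SE 0.0855, 95% interval -0.04 to 0.34, limma adjusted p = 1.00). Nrp2 was at 7.34, 8.90 and 6.95 FPKM in TonEBP+/- and at 6.90, 6.38 and 8.21 FPKM in wild type. Of the 11 plexins and neuropilins, 9 had a positive difference, with a range of 6 (without HET2) to 11 (without WT3) when a library was left out, and 0 passed the test.

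The Eph receptors held the highest levels of all families. Epha4, which binds both ephrin classes, was at 60.3, 59.7 and 61.5 FPKM in TonEBP+/- and at 58.6, 57.5 and 73.3 FPKM in wild type. Epha7 was at 40.7, 37.4 and 46.5 FPKM in TonEBP+/- and at 34.3, 43.3 and 45.2 FPKM in wild type. Epha6 (36.4 FPKM over 6 libraries) and Epha5 (14.4 FPKM) followed. The genotypes shared their range in each of these genes, and the 95% interval of the log2 difference was -0.26 to 0.16 for Epha4 and -0.15 to 0.19 for Epha6. Epha3 was at 5.75, 6.22 and 4.61 FPKM in TonEBP+/- and at 4.28, 4.40 and 5.28 FPKM in wild type. HET1 and HET2 lay above the wild-type range and HET3 within it (log2 difference 0.20, SE 0.120, limma adjusted p = 1.00). Epha10 averaged 3.44 FPKM. Epha8, Epha2 and Epha1 were under the filter, at 0.426, 0.230 and 0.155 FPKM.

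Among the B-type receptors, Ephb6, whose kinase domain is inactive, was at 12.2, 13.5 and 12.7 FPKM in TonEBP+/- and at 12.8, 9.52 and 11.8 FPKM in wild type. WT2 alone was low and the genotypes overlapped (log2 difference 0.17, SE 0.105, limma adjusted p = 1.00; 0.05 without WT2). Ephb1 was at 8.33, 7.89 and 8.11 FPKM in TonEBP+/- and at 8.29, 7.82 and 10.3 FPKM in wild type. Ephb2 and Ephb3, which take part in spine formation, averaged 3.88 and 3.76 FPKM over 6 libraries.

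Ephb4, the receptor of Efnb2 known from veins, was the least abundant tested Eph receptor and the member with the smallest p. It was at 1.54, 1.89 and 1.66 FPKM in HET1 to HET3 and at 1.13, 1.19 and 0.935 FPKM in WT1 to WT3. Every TonEBP+/- library lay above every wild-type library. The means were 1.70 ± 0.178 FPKM in TonEBP+/- and 1.08 ± 0.133 FPKM in wild type (SD, n = 3 each), a ratio of 1.57. The log2 difference of 0.37 (SE 0.123, 95% interval 0.10 to 0.65) had an unadjusted p of 0.0127 and a limma adjusted p of 1.00. By exact permutation (two-sided) p was 0.1, which no design of 3 against 3 can go below. These FPKM values correspond to roughly 60 to 102 fragments per TonEBP+/- library and 43 to 60 per wild-type library, estimated from the step size and the exon length. Because all 3 TonEBP+/- libraries passed 1 FPKM, the gene would have been tested whatever its wild-type level. Endothelial markers overlapped between the genotypes (77.2, 86.2 and 69.1 FPKM summed in HET1 to HET3, and 77.3, 71.8 and 78.6 FPKM in WT1 to WT3). So did mural cell markers (69.6, 105 and 80.3 FPKM in HET1 to HET3, and 77.1, 68.9 and 91.4 FPKM in WT1 to WT3). The part of vascular cells in Ephb4 was not tested. With the thalamus covariate the unadjusted limma p of Ephb4 was 0.0933 (log2 difference 0.31, SE 0.164). With the meningeal covariate it was 0.0551 (log2 difference 0.30, SE 0.135). All 12 tested thalamus markers were lower in TonEBP+/- and all 8 tested meningeal markers higher, so each covariate shares part of the genotype contrast.

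**Figure D5:**
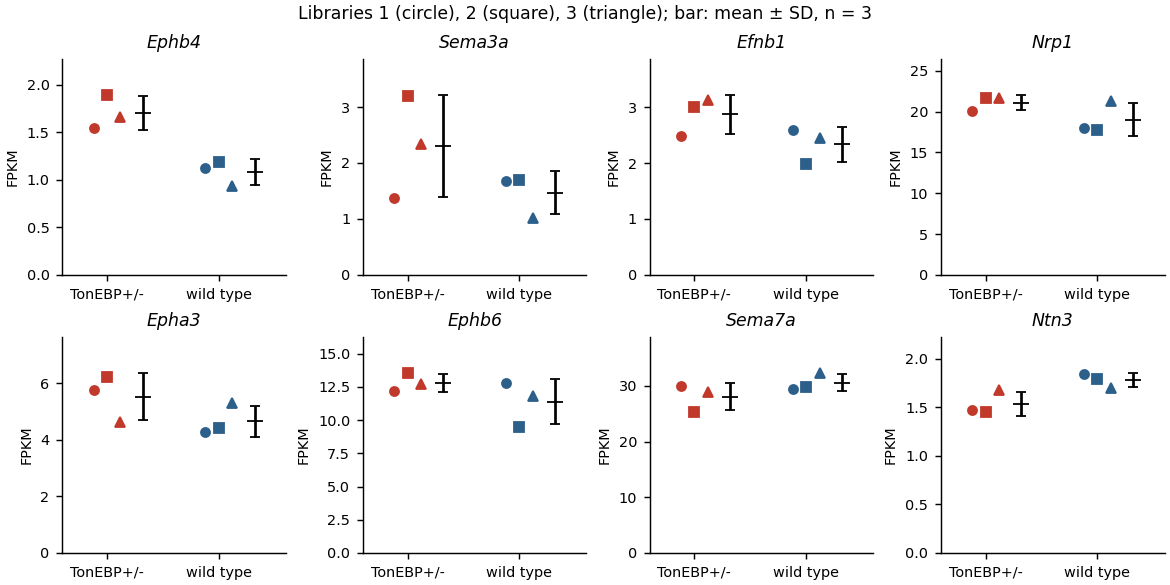
FPKM in each library of the 7 tested guidance genes with the smallest p and of Ntn3, TonEBP+/- in red on the left and wild type in blue on the right, with the mean and SD (n = 3) as a bar. Circles, squares and triangles are libraries 1, 2 and 3. The genotypes are apart in Ephb4 (1.54 to 1.89 against 0.935 to 1.19 FPKM) and Ntn3 (1.45 to 1.67 against 1.70 to 1.85 FPKM) and overlap in the other 6.

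Ephrins are the membrane-bound partners of Eph receptors, A-type held by a lipid anchor and B-type spanning the membrane. Efnb3 was at 42.7, 34.7 and 41.1 FPKM in TonEBP+/- and at 38.1, 34.5 and 43.4 FPKM in wild type. Efna3 was at 21.2, 22.5 and 20.6 FPKM in TonEBP+/- and at 21.8, 18.5 and 21.7 FPKM in wild type. These 2 ligands stood far above the rest of their classes, with no separation of genotypes. Efnb2, the vascular partner of Ephb4, was at 4.89, 6.79 and 6.10 FPKM in TonEBP+/- and at 6.05, 4.86 and 6.12 FPKM in wild type. Efnb1 was at 2.48, 3.00 and 3.14 FPKM in TonEBP+/- and at 2.58, 1.98 and 2.45 FPKM in wild type. HET2 and HET3 lay above the wild-type range of Efnb1 and HET1 within it (log2 difference 0.21, SE 0.122, 95% interval -0.06 to 0.49, limma adjusted p = 1.00). Efna1 was at 1.74, 2.23 and 2.03 FPKM in TonEBP+/- and at 2.00, 2.08 and 1.79 FPKM in wild type. Efna5 and Efna2 averaged 1.92 and 1.49 FPKM over 6 libraries, and the untested Efna4 averaged 0.265 FPKM. Of the 7 tested ephrins, 5 had a positive difference, 3 without HET2 or WT2 and 3 with either covariate, and 0 passed the test.

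Levels of neighbouring genes were set side by side for some groups of family members. Efna3, Efna1 and Efna4 lie together on chromosome 3 of GRCm38, with 32.9 kb between Efna3 and Efna1 and 10.5 kb between Efna3 and Efna4. Their means over 6 libraries were 21.1, 1.98 and 0.265 FPKM. Robo3 and Robo4, 2.02 kb apart on chromosome 9, were alike in level at 0.747 and 0.728 FPKM. Robo2 and Robo1, 844 kb apart on chromosome 16, were both at 12.9 FPKM. Sema3e and Sema3a, 422 kb apart on chromosome 5, were at 10.8 and 1.88 FPKM. Sema3d, 536 kb from Sema3a, was at 2.20 FPKM. Sema3b and Sema3f, 72.3 kb apart on chromosome 9, were at 1.97 and 0.584 FPKM. The step size of the libraries and the exon lengths put Efna1 at 25 to 46 fragments per library and Ntn5 at 9 to 32, so differences in such genes are poorly resolved at this depth.

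Slits are secreted repellents and Robos their receptors. Slit1 was at 9.88, 12.0 and 10.1 FPKM in TonEBP+/- and at 10.7, 8.81 and 11.8 FPKM in wild type. Slit3 was at 6.09, 7.25 and 6.13 FPKM in TonEBP+/- and at 6.05, 5.25 and 6.90 FPKM in wild type. Slit2 averaged 3.52 FPKM over 6 libraries. In all 3 genes HET2 was the highest and WT2 the lowest library. All 3 log2 differences were positive (0.03 to 0.10), 2 of them without HET2, without WT2 or with the meningeal covariate and 1 with the thalamus covariate, and 0 passed the test. Robo2 was at 11.6, 14.7 and 12.7 FPKM in TonEBP+/- and at 13.0, 12.1 and 13.3 FPKM in wild type. Robo1 was at 13.6, 12.1 and 12.0 FPKM in TonEBP+/- and at 12.9, 13.0 and 13.6 FPKM in wild type. Neither separated the genotypes, with 95% intervals of -0.20 to 0.22 for Robo2 and -0.23 to 0.11 for Robo1 on the log2 scale. Robo3, a receptor of commissural axons, was under the filter with 1.16, 0.695 and 0.776 FPKM in TonEBP+/- and 0.534, 0.544 and 0.773 FPKM in wild type. Robo4, a receptor of blood vessels, was at 0.615 to 0.833 FPKM in TonEBP+/- and 0.656 to 0.797 FPKM in wild type.

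Netrins were the least abundant family of ligands. Ntn4, a netrin of basement membranes, was at 2.58, 2.90 and 3.18 FPKM in TonEBP+/- and at 3.12, 4.32 and 2.66 FPKM in wild type. WT2 alone was high, and the log2 difference was -0.15 (SE 0.145, 95% interval -0.48 to 0.17, limma adjusted p = 1.00). Ntn1, the founding attractant, was at 1.41, 1.67 and 1.29 FPKM in TonEBP+/- and at 1.69, 1.09 and 1.74 FPKM in wild type. Ntn3 was at 1.48, 1.45 and 1.67 FPKM in TonEBP+/- and at 1.85, 1.79 and 1.70 FPKM in wild type. Every TonEBP+/- library of Ntn3 lay below every wild-type library, with HET3 and WT3 0.0294 FPKM apart. The log2 difference was -0.14 (SE 0.112, limma adjusted p = 1.00; two-sided exact permutation p = 0.1). Ntn3 shares 89 bases of exon on the same strand with Tbc1d24, which averaged 11.6 FPKM, and 139 with a gene on the other strand, so its low level is uncertain. All 4 netrin differences were negative and 0 passed the test. All 4 were also negative under both other scalings and both covariates, 3 without HET1, HET3 or WT1, and 2 without WT3.

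Among the netrin receptors, Unc5c and Unc5a were the most abundant. Unc5c was at 10.6, 9.25 and 8.92 FPKM in TonEBP+/- and at 9.70, 9.35 and 10.9 FPKM in wild type. Unc5a was at 8.81, 10.8 and 8.69 FPKM in TonEBP+/- and at 10.5, 8.08 and 9.77 FPKM in wild type. Dcc, the receptor for attraction by netrins, was at 3.57, 4.10 and 3.88 FPKM in TonEBP+/- and at 3.55, 3.74 and 4.08 FPKM in wild type. These 3 receptors did not separate the genotypes, and the 95% interval of Dcc was -0.20 to 0.24 on the log2 scale. Unc5b and Unc5d averaged 4.90 and 3.02 FPKM. Unc5d was high in HET2 alone, at 4.36 FPKM, against 2.32 and 2.48 FPKM in HET1 and HET3 and 2.55 to 3.40 FPKM in wild type. The antisense transcript Plxna4os1 was at 0.418 to 0.700 FPKM in TonEBP+/- and at 0.30 to 0.535 FPKM in wild type, and was not tested.

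TonEBP binds DNA at sites built on TGGAAA, so the promoters of the members were searched for it. RefSeq promoters of 300 bases on GRCm38.p6 (250 bases before and 50 after a transcript start) were matched by symbol for 59 of the 70 members, 75 promoters in all. TGGAAA stood on either strand in 9 of the 75 (12.0%), against 16.2% of the promoters of tested genes and 21.4% of all promoters. The longer TonE consensus, which contains it, stood in 4 of the 75 (5.33%), against 3.41% and 4.96%. A match is a description of the letters and not a binding site. Shown are the promoters of the pair of genes whose genotypes did not overlap, followed by those of Sema3a, described earlier, and its chromosome 5 neighbour Sema3e. They are printed along the gene's own strand, with TGGAAA in capitals. The Ephb4 promoter is chr5:137349859-137350158 (plus strand) and that of Ntn3 chr17:24209338-24209637 (minus strand). The Sema3a window, chr5:13396534-13396833 (plus strand), lies at a start within the RefSeq gene (13124822 to 13603485), and the Sema3e promoter is chr5:14025026-14025325 (plus strand).
Ephb4: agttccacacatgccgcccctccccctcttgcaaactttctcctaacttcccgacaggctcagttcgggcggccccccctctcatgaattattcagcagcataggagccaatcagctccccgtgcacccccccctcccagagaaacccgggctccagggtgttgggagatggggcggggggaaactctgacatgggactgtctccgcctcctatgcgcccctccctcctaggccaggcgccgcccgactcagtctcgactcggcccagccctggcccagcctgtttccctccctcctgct
Ntn3: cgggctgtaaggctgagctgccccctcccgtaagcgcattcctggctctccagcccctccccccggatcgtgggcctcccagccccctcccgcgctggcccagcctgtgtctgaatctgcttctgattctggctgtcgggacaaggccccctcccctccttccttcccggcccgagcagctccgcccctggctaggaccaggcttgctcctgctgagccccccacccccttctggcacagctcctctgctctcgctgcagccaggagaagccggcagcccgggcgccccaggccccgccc
Sema3a: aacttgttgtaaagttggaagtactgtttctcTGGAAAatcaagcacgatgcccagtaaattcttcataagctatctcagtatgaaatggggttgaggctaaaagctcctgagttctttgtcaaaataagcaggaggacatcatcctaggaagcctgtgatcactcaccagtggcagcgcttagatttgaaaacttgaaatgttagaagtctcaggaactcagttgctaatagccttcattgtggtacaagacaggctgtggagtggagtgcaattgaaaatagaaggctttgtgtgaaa
Sema3e: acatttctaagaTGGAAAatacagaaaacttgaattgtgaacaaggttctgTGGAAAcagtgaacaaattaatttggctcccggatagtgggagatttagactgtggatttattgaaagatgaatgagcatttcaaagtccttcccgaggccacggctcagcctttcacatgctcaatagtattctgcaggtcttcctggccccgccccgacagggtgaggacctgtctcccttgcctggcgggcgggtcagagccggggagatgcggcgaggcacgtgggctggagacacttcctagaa
The windows of Ephb4 and Ntn3 hold 0 matches on either strand and that of Sema3a holds 1. The Sema3e window holds 2, and the gene had a log2 difference of 0.02 (SE 0.0912). None of these 4 windows holds the longer TonE consensus, which stood in promoters of Efna4, Sema4f, Sema6c and Sema6d. Any link between the letters and the differences was not tested.

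Other genes of the guidance pathways came from lists chosen with earlier results of these data known. Of 25 tested co-receptors and other cues, 11 had a positive and 14 a negative log2 difference (median -0.00). By limma 0 passed, and 1 (lower) had an unadjusted p under 0.05, as 1.84% of all genes tested did in that direction. A count of 1 is near that background. The smallest p was that of Ntng1, which encodes netrin G1, a lipid-anchored protein of thalamic axons. It was at 19.2, 15.2 and 11.3 FPKM in TonEBP+/- and at 19.1, 21.0 and 21.8 FPKM in wild type (log2 difference -0.44, SE 0.163, limma adjusted p = 1.00). HET2 and HET3, the libraries low in thalamus markers, were low in Ntng1, and HET1 was within the wild-type range. Rtn4rl2, a homologue of the Nogo receptor, followed with a log2 difference of 0.31 (SE 0.156), and Rtn4r, which encodes the Nogo receptor, with one of 0.18 (SE 0.105). With a library left out, 7 (without WT2) to 16 (without HET3 or WT3) of the co-receptors and other cues were positive.

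Of 51 tested cytoplasmic effectors, which link the receptors to actin and microtubules, 14 had a positive and 37 a negative difference (median -0.02), beside 50% of all genes positive. The number positive was 18 after quantile normalization, 10 after median scaling (where 44.5% of all genes were), 22 with either covariate, and 12 (without WT2) to 24 (without WT1) with a library left out. By limma 0 passed, and again 1 (lower) had an unadjusted p under 0.05, which is near the 1.84% of all genes tested. Vav3, which acts downstream of Eph receptors, was at 11.4, 6.30 and 7.82 FPKM in TonEBP+/- and at 11.1, 12.5 and 11.6 FPKM in wild type. Again HET2 and HET3 were low and HET1 was within the wild-type range (log2 difference -0.45, SE 0.172, limma adjusted p = 1.00). Srgap1, which acts downstream of Robo, had a log2 difference of -0.30 (SE 0.148), and Enah, an actin regulator, one of -0.19 (SE 0.0954). The part of thalamic content in these values was not tested.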

How the data were processed

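Strand-specific RNA-seq libraries were made from 6 hippocampus samples, per the labels' protocols, and reads were aligned to mm10 with TopHat, per the submitters' processing notes. Neither the aligner's version nor the annotation and quantifier are named there. The deposited values are log2(value + 1), in a table per library. Undoing the log gave an abundance read as FPKM, because low values fell on steps set by transcript length (83.1% to 86.8% of low values lay no more than 0.15 steps from a whole number). The step size was the one with the largest such share. Such steps show scaling by length and cannot by themselves tell FPKM from another unit scaled by length. Depth was estimated from the step size, on the reading as FPKM. The 13122 genes that reached 1 FPKM in 3 or more of the 6 libraries entered a limma fit (version 3.58.1, R 4.3.3) with genotype as its term, a variance trend and robust moderation. Benjamini-Hochberg adjustment ran over all these genes, with a threshold of 0.05. Log2 differences are on the log2(FPKM + 1) scale, which understates those of low genes. Lengths come from GENCODE M21 (GRCm38) and positions from RefSeq. How reads of overlapping or antisense genes were assigned is not stated.

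The members and lists were chosen with earlier results of these data known. Every member may be named. Values in every library are given for the 2 most abundant members of each family, the 12 with the smallest p and those whose genotypes did not overlap. Sema3b, Ntn1 and Robo3 were added after their values were seen. Of other pathway genes, the 3 with the smallest p per list are named. Alternatives were 2 other scalings, 2 other filters, a pseudocount of 0.1, no robust option, a replicate block, marker covariates and each library left out. Those planned for counts did not apply.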

Additional observations from a re-analysis of the deposited data

How the results depend on the processing

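No guidance gene passed a limma adjusted p of 0.05 under any of the 15 alternatives, and 0 of the 12 with the smallest p were past it in any of them. Over all genes, 0 to 8 passed with a library left out, the 8 without HET1. The count of guidance genes with an unadjusted p under 0.05 (1 higher, 0 lower) was 0 higher with the stricter filter (a mean of 5 FPKM, which drops Ephb4) and 0 with the meningeal covariate, and 1 to 2 with a library left out (1.41% to 2.88% of all genes), 0 lower throughout (1.36% to 2.94%). Ephb4 was in each of these leave-one-out counts, with Sema3a added without HET1, Epha3 without HET3, Ephb6 without WT1 and Nrp1 without WT3. With the thalamus covariate the 1 was Plxnb1 in place of Ephb4. The count without overlap (1 each way) was 0 and 0 with the stricter filter. With a library left out, where fewer libraries have to separate, it was 1 to 9 higher and 1 to 6 lower, where 7.68% to 10.2% and 7.77% to 11.4% of all genes were. The 9 were without WT3 (9.58% of all genes) and the 6 without HET1 (9.96%). The median log2 difference of the guidance genes (0.03) was -0.02 to 0.07 with a library left out. Of the 12 genes with the smallest p, Plxna2 alone turned sign (-0.048 with the thalamus covariate). Of all 62, 25 turned sign with the thalamus covariate, 20 with the meningeal covariate, 4 to 15 with a library left out, and 0 to 3 under the other scalings, filters, pseudocount, moderation and block. Both covariates share part of the genotype contrast. The median log2 difference was -0.49 over the 12 tested thalamus markers, all lower, and 0.24 over the 8 tested meningeal markers, all higher. A pseudocount of 0.1 gave 0.61 for Ephb4 and 0.57 for Sema3a. Same-numbered libraries of the 2 genotypes did not deviate together but tended to opposite sides (correlations -0.21, -0.25 and -0.16). Differently numbered libraries had correlations of 0.05 to 0.17. Deviations were taken from each genotype's mean, so negative values for same-numbered libraries force positive ones on balance for the others. The positive values are thus no separate observation. The numbers were not taken to pair the samples. With the replicate block, 0 guidance genes passed and 1 had an unadjusted p under 0.05 (2.93% of all genes tested did). Low members rest on few fragments, which limits what could be detected.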
